A study of Mus musculus with 6 samples.

Results

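Cytosolic ribosomal protein genes were examined in tibialis anterior (TA) muscle of mice that lacked Bmal1 in skeletal muscle and had been injected with a GFP or an RBM20 vector. They were chosen by name alone, as all protein-coding genes whose GENCODE symbol starts with Rpl or Rps followed by a digit, together with Rplp0, Rplp1, Rplp2, Rpsa and Fau, leaving out the Rps6k kinases and the pseudogenes. The rule took 87 of the 55401 gene identifiers in the count table, 52 named for the large subunit and 35 for the small subunit. Of these, 78 are core ribosomal proteins, 8 are paralogs (Rpl3l, Rpl22l1, Rps27l, Rps27rt, Rpl7l1, Rpl36al, Rpl39l and Rpl10l), and 1, Rps19bp1, encodes a binding partner of RPS19 rather than a ribosomal protein.

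The cytosolic ribosome consists of a small subunit, which reads the mRNA, and a large subunit, which joins the amino acids, and each is built from ribosomal RNA and a fixed set of proteins present mostly in single copy. The mRNAs of these proteins are among the best known members of the terminal oligopyrimidine (TOP) class, which begin with a C followed by a run of C and T and whose translation is controlled through mTORC1. Striated muscle is known for a ribosomal protein of its own, RPL3L, which takes the place of RPL3.

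RNA was taken from the TA muscle of male C57BL/6 mice, in 3 samples injected with AAV-GFP and 3 with AAV-RBM20, an adeno-associated virus that carries mouse Rbm20, a splicing regulator of titin. All 6 samples had the genotype HSA-MCM-Bmal1-/-, in which a Cre driven by the human skeletal actin promoter removes Bmal1, a transcription factor of the circadian clock, from skeletal muscle after tamoxifen. Tamoxifen was given at 2 mg per day for 5 days to mice of 12 to 16 weeks, AAV followed 4 weeks later, and the muscle was collected 4 weeks after AAV. The dose of the RBM20 vector was above that of the GFP vector, so dose and transgene cannot be told apart, and no mouse with intact Bmal1 was part of this comparison. Nothing in the labels says which samples came from separate animals, so p-values measure the spread between these samples. The lane names of the study's protein blots list the left and the right TA muscle of some mice with different vectors, and whether any of the RNA samples shared a mouse in this way is not given in the sources used here.

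Total counts ranged from 41400132 to 54226618 per library. Rbm20 was at 166 ± 3.20 CPM (the count scaled to the size of the library, SD, n = 3) after AAV-GFP and 484 ± 71.0 CPM after AAV-RBM20, with no overlap between the groups. Its log2 fold change was 1.54 ± 0.149 (SE). The adjusted p of Rbm20 was 0.121 by the quasi-likelihood test of edgeR and 1.4e-17 by the Wald test of DESeq2. The markers of muscle fibres were abundant in every library, with summed levels of 84600 to 139900 CPM over 10 genes. The libraries numbered 3 stood apart in both groups: Ttn took 4.48% and 9.05% of their counts against 16.9% to 17.8% in the other 4 libraries. For the family, the lists and the genes whose fold changes are printed, values without both of these libraries are therefore given where a call or a direction changed. The fit without them has n = 2 per group, and they were picked because they stood apart in these data. Its p-values measure the smaller spread between the libraries that remain.

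Of the 87 ribosomal protein genes, 67 had an entry among the RefSeq promoters of GRCm38.p6. A run of at least 8 bases of only C or T between 30 bases before and 50 bases after the annotated start was found in 73.1% of these 67, against 28.9% of all 27025 promoters, and the longest run had a median of 10 bases against 6. The run was searched on the strand of the gene. The windows below are shown for the genes whose AAV-GFP and AAV-RBM20 levels did not overlap and for the muscle paralog Rpl3l, each as 30 bases with the longest run of C and T in capitals.
Rpl22l1, chr3:28805501-28805530, plus strand: caagcccgTTCTCTTCCCacggctgcagct
Rpl28, chr7:4792954-4792983, plus strand: ctctcgtgTCTCTCTTTCCgtctccggccg
Rpl38, chr11:114668570-114668599, plus strand: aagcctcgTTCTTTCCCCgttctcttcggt
Rplp2, chr7:141447638-141447667, plus strand: cgtcagcgTCTTCCTTTCgccgccggacgc
Rps2, chr17:24720083-24720112, plus strand: aaattgtcccttccgcggcgCCTCCCTCTT
Rps10, chr17:27635226-27635255, minus strand: cgcgcacgCCCCTTCCTTTCCagcctccgc
Rpl3l, chr17:24727846-24727875, plus strand: tggtggggaggCCCCTTCCTaacctgcagg
In Rpl28, Rpl38, Rplp2 and Rps10 the run began 2 to 5 bases before the annotated start, and in Rpl22l1 it began 1 base after it. In Rpl3l the run began 31 bases after the start and in Rps2 40 bases after it. The sequence CCGGAA, the core of ETS factor sites, was present on either strand in 49.3% of the 67 promoters against 15.2% of all promoters, counted over 300 bases. The E-box CACGTG, the sequence that BMAL1 with its partner CLOCK binds, was present in 5 of the 67, or 7.46%, against 7.24% of all promoters. These are matches of letters and not measured sites.

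Ribosomal protein mRNAs were lower in AAV-RBM20 than in AAV-GFP across nearly the whole family, and none of the differences passed the test for a single gene. Of the 84 genes with enough counts to be tested, 82 had a log2 fold change below 0, where 48.7% of all 17222 tested genes did, and 2 were above 0 (background 51.3%). The median was -0.40 on the log2 scale, with quartiles of -0.47 and -0.33, and the median of all genes was 0.0090. By the quasi-likelihood test of edgeR, adjusted by Benjamini and Hochberg's method, 0 of the 84 passed an adjusted p of 0.05 (background 0%), and the smallest adjusted p was 0.618. The delivered gene, Rbm20, did not pass this test either, at an adjusted p of 0.121. The lack of calls for single genes therefore cannot be read as no change. At an unadjusted p under 0.05, 7 were lower (background 3.82%) and 0 were higher (background 4.08%). The levels of the 2 groups did not overlap in 5 genes that were lower, or 5 of 84 against a background of 9.04%, and in 1 that was higher (background 7.71%).

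**Figure D1:**
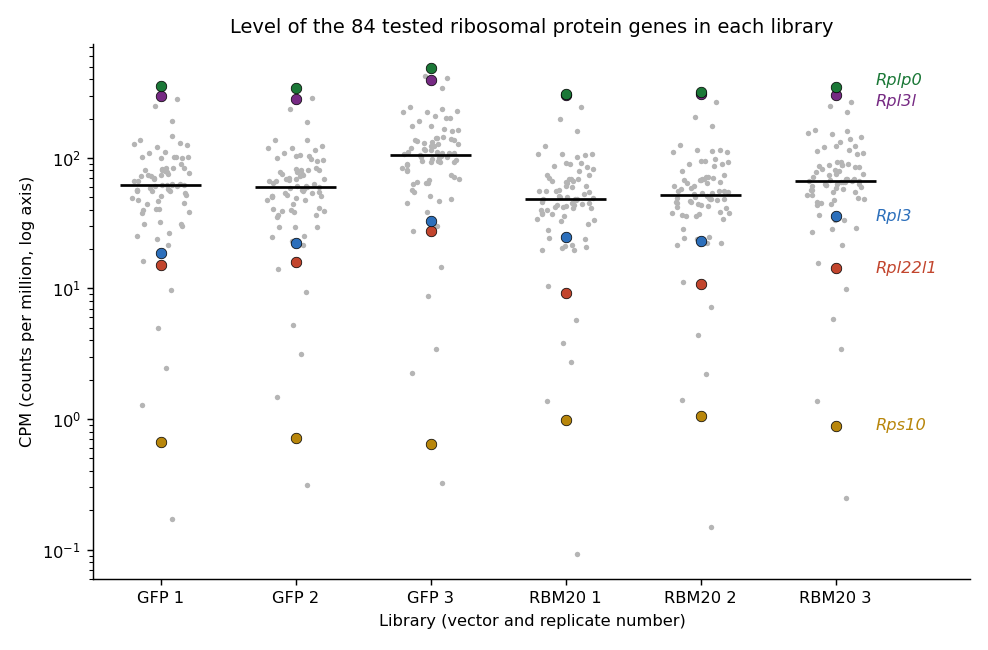
Level of each of the 84 tested ribosomal protein genes in each library, in CPM on a log axis, with the median of the 84 as a black bar and 5 genes in colour. The median level was 62.3, 59.9 and 105 CPM in AAV-GFP replicates 1, 2 and 3 and 48.4, 51.6 and 66.4 CPM in AAV-RBM20 replicates 1, 2 and 3.

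The libraries numbered 3 held more ribosomal protein mRNA than the others in both groups. Ribosomal protein genes took 0.568%, 0.574% and 1.05% of all counts in AAV-GFP replicates 1, 2 and 3. In AAV-RBM20 replicates 1, 2 and 3 they took 0.519%, 0.528% and 0.802%. Each AAV-RBM20 library was below the AAV-GFP library of the same number, while AAV-RBM20 replicate 3 was above AAV-GFP replicates 1 and 2. The group means were 0.729 ± 0.274% and 0.616 ± 0.161% (SD, n = 3), a difference of -0.113 percentage points that was smaller than the SD of either group. Without AAV-GFP replicate 3 the difference was 0.045 percentage points, in the other direction. The level in the third AAV-GFP library over the mean of its first 2 was 1.71-fold at the median of the 84 genes and was above 1 in 83 of them. In AAV-RBM20 the same fold was 1.36 and above 1 in 80, and over all genes it was 1.02 and 0.999.

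Within each pair of libraries with the same number in their titles, most ribosomal protein genes were lower in AAV-RBM20. The pairing rests on these titles, since the table and the descriptions number the AAV-RBM20 libraries 4 to 6. Across all genes, the deviations from the group means correlated at 0.42, 0.20 and 0.48 within the pairs numbered 1, 2 and 3, but AAV-GFP replicate 2 correlated at 0.22 with AAV-RBM20 replicate 1, so the pairs numbered 1 and 2 are not told apart by these values. The family median of AAV-RBM20 replicates 1 and 2 lay below that of both AAV-GFP replicates 1 and 2. The median difference in log2 CPM, AAV-RBM20 minus AAV-GFP, was -0.30 in the pair numbered 1, with 77 of 84 genes lower. In the pair numbered 2 it was -0.17, with 74 of 84 lower, and in the pair numbered 3 it was -0.61, with 82 of 84 lower. Over all genes 48.8% to 50.2% were lower in these pairs. A total of 72 of the 84 were lower in all 3 pairs (background 23%), and 2, Rpl3 and Rps10, were higher in all 3 (background 22.2%).

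**Figure D2:**
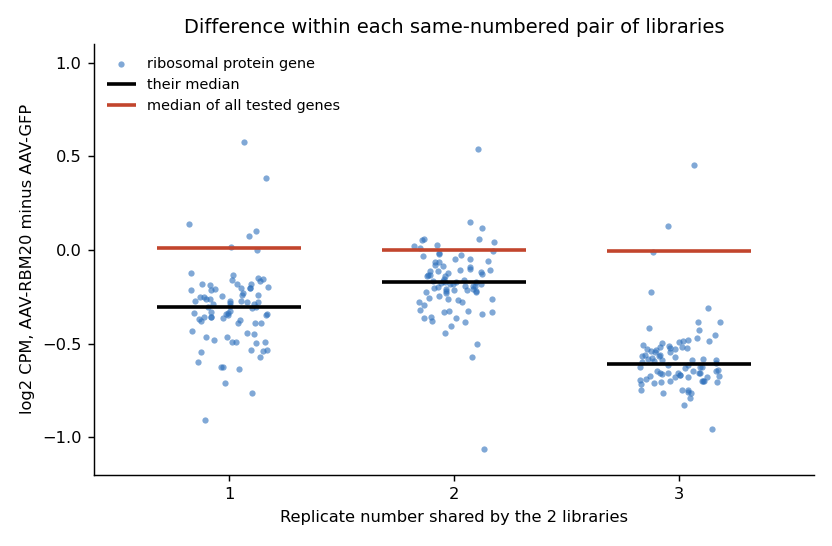
Difference in log2 CPM between the AAV-RBM20 and the AAV-GFP library of each replicate number, for each of 84 ribosomal protein genes (points, spread sideways for display), with their median in black and the median of all tested genes in red. The black bars lie at -0.30, -0.17 and -0.61 and the red bars no further than 0.0088 from 0.

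With the replicate number as a block in edgeR, 68 of the 84 were lower at an unadjusted p under 0.05 (background 9.92%) and 0 were higher (background 8.92%). None passed an adjusted p of 0.05 in that fit (background 0.145%), where the smallest was 0.0663, for Rpl22l1. With both libraries numbered 3 left out, 77 of 83 tested genes were below 0 (background 48.2%) and the median was -0.22. In that fit 60 were lower at an unadjusted p under 0.05 (background 9.19%) and 26 fell at an adjusted p under 0.05 (background for lower genes 2.05%). DESeq2 with the replicate block, added after seeing the data, called 30 lower (background 1.95%), of which 25 were among those 26. Without AAV-GFP replicate 3 the median was -0.098 and the count at an unadjusted p under 0.05 was 2. Leaving out AAV-RBM20 replicate 1 or 2 gave a count of 0, and the shares over all genes in these fits are not given here.

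The summed levels of marker genes of other cell types were compared between the groups without a test, and no single gene of any list passed an adjusted p of 0.05. The summed level of 12 macrophage genes was 35.7 to 125 CPM in AAV-GFP and 77.6 to 177 CPM in AAV-RBM20, with 11 of 12 fold changes above 0. That of 9 fibroblast genes was 673 to 1376 CPM in AAV-GFP and 1106 to 1472 CPM in AAV-RBM20, with 8 of 9 above 0. That of the 10 muscle fibre genes was 130100 to 139900 CPM in AAV-GFP and 84600 to 129700 CPM in AAV-RBM20, with 9 of 10 below 0. All 3 sums differed without overlap when both libraries numbered 3 were left out, while with them only the muscle fibre sums did not overlap. Among the other lists, 6 of 7 slow fibre genes were above 0, with sums of 44.4 to 85.9 CPM in AAV-GFP and 80.0 to 133 CPM in AAV-RBM20, and 5 of 5 tested adipocyte genes were below 0, with sums of 61.6 to 85.4 and 55.7 to 79.7 CPM. The satellite cell sums were 48.9 to 52.0 CPM in AAV-GFP and 43.2 to 45.1 CPM in AAV-RBM20, without overlap, although 4 of 6 genes were above 0. The endothelial, Schwann cell, lymphocyte and erythroid sums overlapped. No marker of these lists was at 0 in all libraries. Their part in the levels of the ribosomal protein genes was not tested, and in whole muscle fewer cells of a type and less RNA per cell cannot be told apart.

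Genes of the large and the small subunit had the same median. Among 46 core genes of the large subunit, 45 were below 0 (background 48.7%) with a median of -0.40. Of these, 4 had an unadjusted p under 0.05 (background for lower genes 3.82%). Among 32 core genes of the small subunit, 31 were below 0 with a median of -0.40, and 2 had an unadjusted p under 0.05 (same backgrounds). In the fit without both libraries numbered 3 the medians were -0.22 and -0.21, and 14 of 45 and 11 of 32 fell at an adjusted p under 0.05 (background 2.05%). The 42 genes with the shorter mRNAs had a median of -0.44 and the 42 with the longer mRNAs a median of -0.39, and across the 84 genes, which share these 6 libraries, Pearson's r of log2 mRNA length with log2 fold change was 0.21, or 0.32 without both libraries numbered 3.

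**Figure D3:**
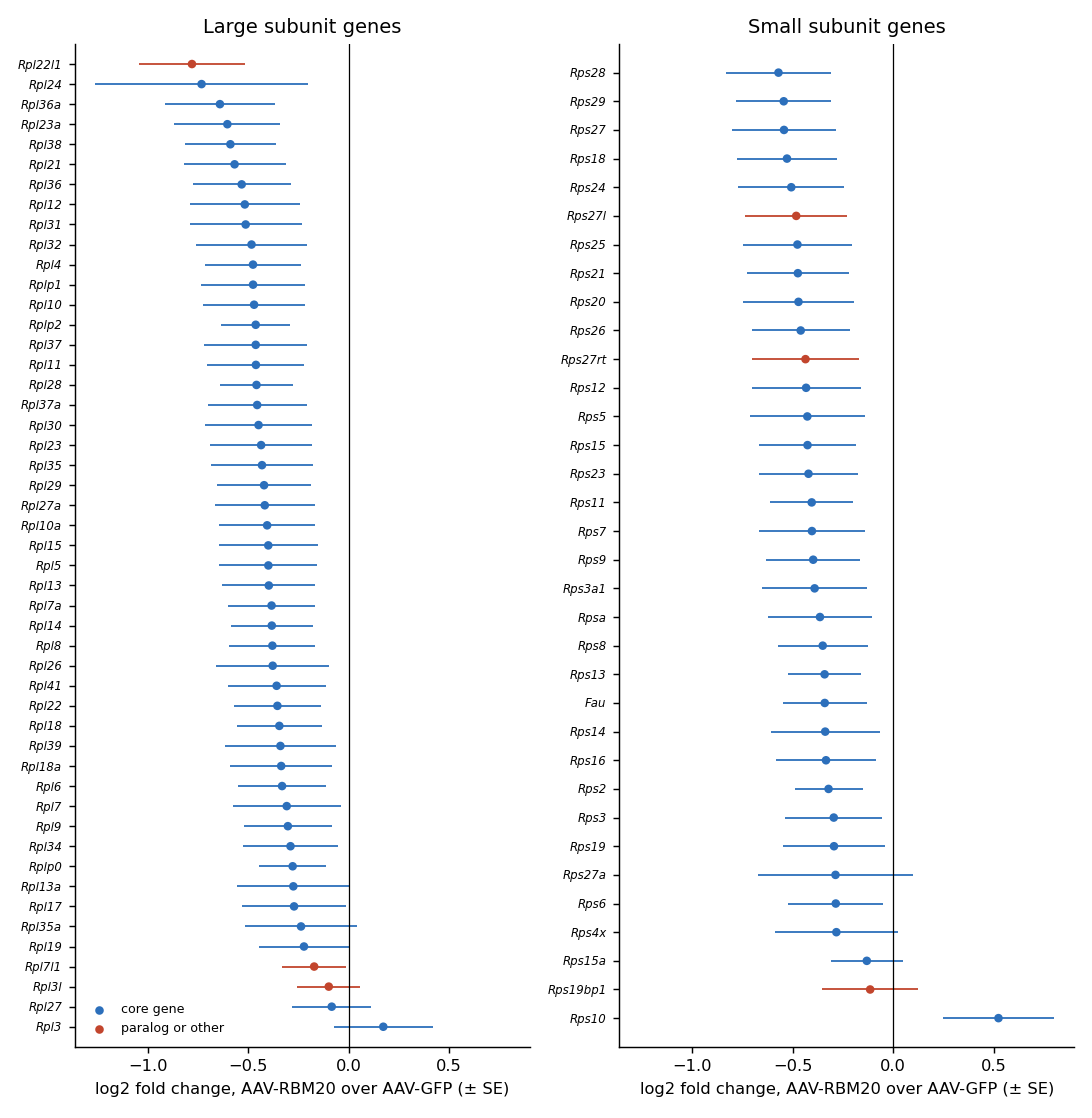
Log2 fold change of AAV-RBM20 over AAV-GFP with its SE from edgeR without a block, for 83 of the tested ribosomal protein genes in order of size, core genes in blue and paralogs and Rps19bp1 in red. All but Rpl3 and Rps10 lie left of 0, between -0.78 and -0.084.

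Rpl22l1, the paralog of the RNA-binding large subunit protein gene Rpl22, had the lowest fold change of the family. Its level was 15.1, 16.0 and 27.6 CPM after AAV-GFP in replicates 1, 2 and 3, and 9.24, 10.8 and 14.2 CPM after AAV-RBM20. The groups did not overlap, and AAV-RBM20 replicate 3 lay just below AAV-GFP replicate 1. It had a log2 fold change of -0.78 ± 0.27 (SE) with an unadjusted p of 0.0190 and an edgeR adjusted p of 0.618. Without both libraries numbered 3 it was -0.63, with an edgeR adjusted p of 0.0111. Rpl22 itself had a log2 fold change of -0.35 ± 0.22, near the family median.

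The other core genes with the most negative fold changes among well expressed genes were Rpl36a, Rpl23a, Rpl38 and Rps28. Rpl38, a large subunit gene known for its part in the translation of Hox mRNAs, was at 30.2, 29.4 and 48.6 CPM in AAV-GFP replicates 1, 2 and 3. After AAV-RBM20 it was at 20.8, 22.3 and 29.0 CPM, below each AAV-GFP library. Its log2 fold change was -0.59 ± 0.23, with an edgeR adjusted p of 0.618. With both libraries numbered 3 left out it was -0.46, with an edgeR adjusted p of 0.0103, and DESeq2 with the replicate block gave an adjusted p of 0.00399.

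Rpl36a, an X-linked gene of the large subunit, was at 16.2, 14.2 and 27.7 CPM in AAV-GFP and at 10.4, 11.3 and 15.6 CPM in AAV-RBM20. Here the third AAV-RBM20 library was above the second AAV-GFP library, so the groups overlapped, and the log2 fold change was -0.64 ± 0.28. Rpl23a, whose protein lies at the exit of the peptide tunnel, was at 75.9, 68.7 and 127 CPM in AAV-GFP and at 49.3, 54.8 and 74.9 CPM in AAV-RBM20. Its groups overlapped as well, and its log2 fold change was -0.60 ± 0.26. In the fit without both libraries numbered 3, Rpl36a had -0.48 and Rpl23a -0.47, with edgeR adjusted p-values of 0.0350 and 0.00819.

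Rps28, a gene of the small subunit, was at 32.4, 29.5 and 51.4 CPM in AAV-GFP and at 21.0, 21.7 and 33.5 CPM in AAV-RBM20. Its groups overlapped through the third AAV-RBM20 library, and its log2 fold change was -0.57 ± 0.26. Rpl28 and Rps29, named after their values were seen because their unadjusted p was under 0.05, had log2 fold changes of -0.46 ± 0.18 and -0.54 ± 0.24. Rpl28, a gene of the large subunit, was at 82.7, 81.5 and 122 CPM in AAV-GFP and at 65.5, 67.8 and 75.3 CPM in AAV-RBM20, without overlap. Without both libraries numbered 3, Rps28, Rpl28 and Rps29 had -0.53, -0.29 and -0.43, with edgeR adjusted p-values of 0.00693, 0.0266 and 0.00692.

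The stalk of the large subunit, which recruits elongation factors, is formed by the proteins of Rplp0, Rplp1 and Rplp2. Rplp2 was at 72.4, 68.3 and 102 CPM in AAV-GFP and at 55.2, 58.6 and 62.1 CPM in AAV-RBM20. The groups did not overlap, the third AAV-RBM20 library was 1.09-fold the mean of the first 2, below the family median of 1.36, and the log2 fold change was -0.46 ± 0.17. Rplp1 was at 147, 136 and 237 CPM in AAV-GFP and at 101, 114 and 160 CPM in AAV-RBM20, with overlap and a log2 fold change of -0.48 ± 0.26. Rplp0 was at 355, 341 and 485 CPM in AAV-GFP and at 309, 317 and 348 CPM in AAV-RBM20, with overlap and a log2 fold change of -0.28 ± 0.17. With both libraries numbered 3 left out, Rplp2 had -0.30 and Rplp1 -0.40, with edgeR adjusted p-values of 0.0340 and 0.0161, and Rplp0 had -0.15 with 0.249.

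Per kilobase of annotated exon, the highest levels in the family were those of Rplp1, at 299 CPM per kilobase, Rplp0 at 216, Rpl3l at 191, Rps2 at 160 and Rpl36 at 144. Rps2, whose protein lies at the entry of the mRNA channel, was at 285, 287 and 405 CPM in AAV-GFP and at 247, 265 and 269 CPM in AAV-RBM20. Its groups did not overlap, its 3 AAV-RBM20 libraries lay close together, and its log2 fold change was -0.32 ± 0.17. Rpl36 had a log2 fold change of -0.53 ± 0.24 with overlapping groups. In the fit without both libraries numbered 3, Rps2 had -0.15 with an edgeR adjusted p of 0.249 and Rpl36 had -0.44 with 0.0132.

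The remaining genes followed for their roles lay around the family median, and their groups overlapped. Rpl5 and Rpl11, whose proteins form with a ribosomal RNA the particle that binds Mdm2, had log2 fold changes of -0.40 ± 0.24 and -0.46 ± 0.24. Rpsa, which also encodes the laminin receptor precursor, had -0.36 ± 0.26, and Rpl41, which encodes the shortest ribosomal protein, had -0.36 ± 0.24. Fau, in which the small subunit protein is fused to a ubiquitin-like protein, had -0.34 ± 0.21. Rpl10, Rpl39, Rpl7 and Rps4x had -0.47 ± 0.25, -0.34 ± 0.28, -0.31 ± 0.27 and -0.28 ± 0.30. Without both libraries numbered 3 these genes lay between -0.31, for Rpl11, and -0.072, for Rps4x, with -0.098 for Rpl7. In that fit Rpl10 had an edgeR adjusted p of 0.0228, the only one of them under 0.05.

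Rps27a, in which the small subunit protein is fused to ubiquitin, had the widest range of the well expressed core genes, at 1.63 on the log2 scale over the 6 libraries. It was at 31.0, 36.7 and 74.2 CPM in AAV-GFP and at 23.9, 38.2 and 54.3 CPM in AAV-RBM20. The AAV-RBM20 library was above the AAV-GFP library in the pair numbered 2, and the log2 fold change was -0.29 ± 0.38, or -0.12 without both libraries numbered 3.

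The core genes varied together from library to library, mostly through the libraries numbered 3. Over the 75 core genes whose log2 CPM averaged 1 or more, the range of log2 CPM across the 6 libraries had a median of 1.08. After the family median of each library was subtracted, the range had a median of 0.21, from 0.063 to 0.80, and was at most 0.5 in 71 of the 75. The 4 others were Rpl3 with 0.80, Rps27a with 0.73, Rpl27 with 0.63 and Rps15a with 0.52. Rpl27 and Rps15a were named after their values were seen. Over the 4 libraries not numbered 3 the median range was 0.31 before and 0.17 after the subtraction, and 3 genes were above 0.5, Rpl3 with 0.70, Rps27a with 0.55 and Rpl27 with 0.51.

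**Figure D4:**
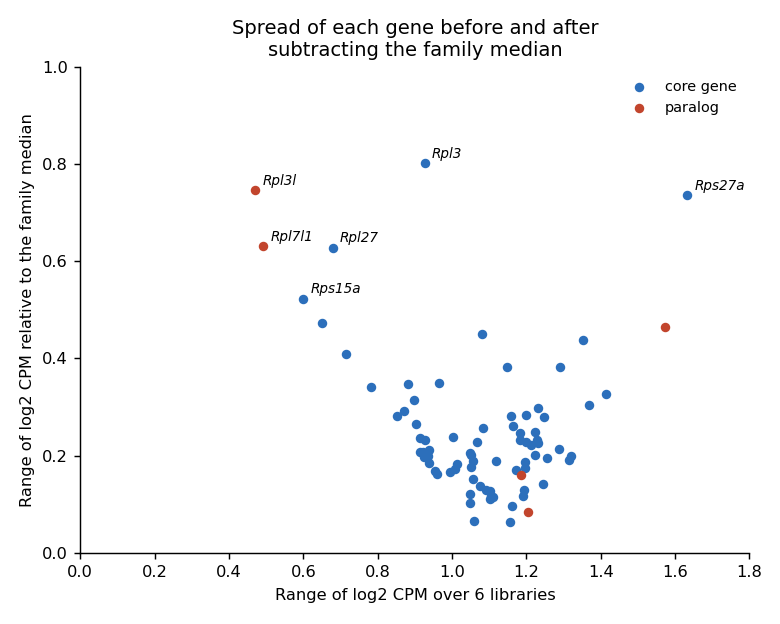
Range of log2 CPM across the 6 libraries for core genes (blue) and paralogs (red) whose log2 CPM averaged 1 or more, against the range after the family median of each library was subtracted. Most core genes lie near a range of 1.08 before and 0.21 after the subtraction, and the genes above 0.5 on the vertical axis are labelled.

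Rpl3, which encodes the large subunit protein next to the peptidyl transferase centre, was the only well expressed core gene with a fold change above 0. It was at 18.8, 22.4 and 32.8 CPM in AAV-GFP replicates 1, 2 and 3 and at 24.6, 23.0 and 35.8 CPM in AAV-RBM20. Each AAV-RBM20 library was above the AAV-GFP library of the same number, but the groups overlapped. The log2 fold change was 0.17 ± 0.25, with an edgeR adjusted p of 0.848, and it was -0.043 without AAV-RBM20 replicate 3. Relative to the family median the level of Rpl3 was -1.73, -1.49 and -1.73 on the log2 scale after AAV-GFP and -1.03, -1.25 and -0.93 after AAV-RBM20. On that scale the groups did not overlap and Rpl3 was higher after AAV-RBM20, which was noticed in the data and not tested. This was not particular to Rpl3. Rpl27 and Rps15a were also higher without overlap on that scale, with mean differences of 0.34 and 0.27 against 0.58 for Rpl3. Other core genes, such as Rpl23a and Rpl38, were lower without overlap, and the shares over the family are not given here.

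Rpl3l, the paralog of Rpl3 expressed in striated muscle, was at 298, 283 and 392 CPM in AAV-GFP and at 302, 307 and 300.2 CPM in AAV-RBM20. The AAV-RBM20 levels lay inside the range of the AAV-GFP levels. The log2 fold change was -0.099 ± 0.16, with an edgeR adjusted p of 0.864, and it was 0.073 without both libraries numbered 3. Rpl3l did not share the higher level of the third AAV-RBM20 library, where its level was 0.987 times the mean of the first 2 libraries.

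The ratio of a paralog to its parent gene within a library does not depend on scaling between libraries, and 5 pairs had enough counts to be compared. Rpl3l had 15.9, 12.7 and 11.9 counts for each count of Rpl3 in AAV-GFP replicates 1, 2 and 3 and 12.3, 13.3 and 8.38 in AAV-RBM20. Per kilobase of annotated exon the mean log2 ratio was 4.69 ± 0.22 (SD, n = 3) after AAV-GFP and 4.42 ± 0.36 after AAV-RBM20. The difference of -0.27 was within the spread, with a two-sided exact permutation p of 0.5, or 0.5 after adjustment over the 5 pairs, where 0.1 is the smallest unadjusted p that 3 against 3 libraries allow.

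Rpl22l1 had 0.374, 0.399 and 0.430 counts for each count of Rpl22 after AAV-GFP and 0.279, 0.302 and 0.321 after AAV-RBM20. The ratios were lower after AAV-RBM20 without overlap, and within both groups they lay close together. The difference of the mean log2 ratio was -0.42, against SDs of 0.10 in each group, with an exact permutation p of 0.1 and an adjusted p of 0.25.

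Rps27rt, a retrogene of Rps27 without introns, had 0.101, 0.110 and 0.105 counts for each count of Rps27 after AAV-GFP and 0.112, 0.117 and 0.112 after AAV-RBM20. The groups did not overlap, the difference of the mean log2 ratio was 0.11, and the exact permutation p was 0.1 with an adjusted p of 0.25. Rps27rt and Rps27 are near copies, so reads may be split between them by the mapping. The ratios of Rps27l to Rps27 and of Rpl7l1 to Rpl7 overlapped between groups, with differences of the mean log2 ratio of 0.083 and 0.11 and exact permutation p-values of 0.3 and 0.5, both 0.5 after adjustment.

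**Figure D5:**
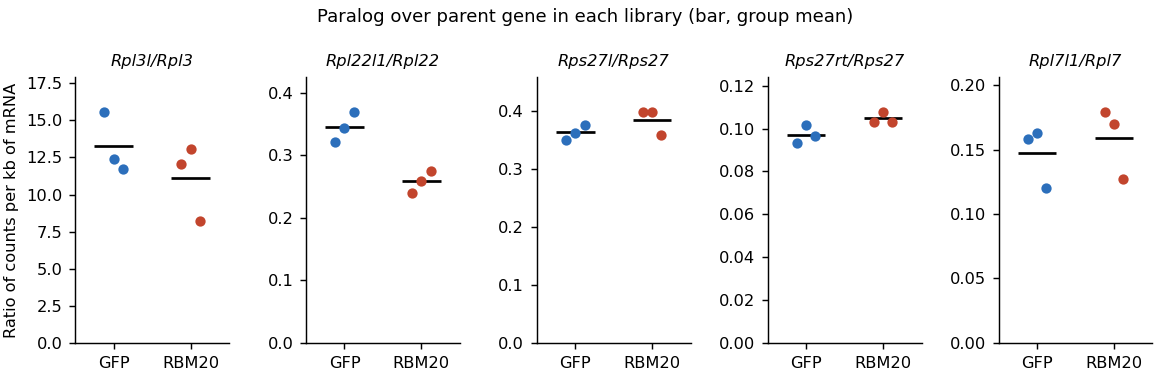
Ratio of counts per kilobase of mRNA of a paralog to its parent gene in each library (points), with the group mean as a bar and each axis starting at 0. The Rpl22l1 to Rpl22 ratios of AAV-RBM20 lie below all those of AAV-GFP, and the Rpl3l to Rpl3 ratios overlap.

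The other paralogs were hardly detected. Rpl10l had 0 counts in every library, which allows a level of up to 0.0108 CPM over the 6 libraries. Rpl39l had 0, 0 and 3 counts after AAV-GFP and 2, 2 and 4 after AAV-RBM20. Rpl36al had 8, 6 and 21 counts after AAV-GFP and 3, 6 and 14 after AAV-RBM20. These 3 genes were the members not tested. Rps19bp1 was at 2.46 to 3.44 CPM in AAV-GFP and 2.21 to 3.42 CPM in AAV-RBM20, with a log2 fold change of -0.11 ± 0.24.

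The counts of 4 members are uncertain. Low counts and overlapping annotation in GENCODE M21 were found together in them, and whether the overlap lowered the counts was not tested. The mRNAs of Rps10, Rpl24, Rpl13a and Rpl36al are covered by more than 50% by exons of another annotated gene on the same strand, and these 4 were at a mean of 0.205 to 1.53 CPM where the 75 other core genes ranged from 9.41 to 359 CPM. Every one of the partner genes had 0 counts in all 6 libraries.

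Rps10, whose mRNA is covered to 91.6% by the readthrough gene RPS10-NUDT3, had 27, 30 and 34 counts after AAV-GFP and 54, 42 and 43 after AAV-RBM20. It was the only member higher in AAV-RBM20 without overlap, with a log2 fold change of 0.52 ± 0.28 and an edgeR adjusted p of 0.654. The pseudogenes named for Rps10 held more counts than the gene, at 467, 456 and 943 after AAV-GFP and 485, 381 and 564 after AAV-RBM20. With these added the log2 fold change of Rps10 was -0.37, close to that of the family. Over the family 300 pseudogenes of this kind are annotated, 167 had at least 1 count, and they held 1.59% to 1.70% of the counts on members and pseudogenes together.

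Other genes of ribosome production and translation were mostly below 0 as well, with medians nearer to 0 than that of the ribosomal proteins, and 0 of them passed an edgeR adjusted p of 0.05 (background 0%). Of all tested genes 48.7% were below 0, and 3.82% were lower at an unadjusted p under 0.05. Of 36 translation initiation factors all 36 were below 0, with a median log2 fold change of -0.20, and 5 had an unadjusted p under 0.05. Of 10 elongation factors 8 were below 0, with a median of -0.29, and 4 had an unadjusted p under 0.05. Of 10 other TOP mRNAs 8 were below 0, with a median of -0.23, and 0 had an unadjusted p under 0.05.

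Of 44 ribosome assembly factors 39 were below 0, with a median of -0.22, and 7 had an unadjusted p under 0.05. Of 15 genes of RNA polymerase I, which transcribes ribosomal RNA, 10 were below 0, with a median of -0.097, and 1 had an unadjusted p under 0.05. Of 21 genes of mTORC1 and translation control 15 were below 0, with a median of -0.14 and 2 at an unadjusted p under 0.05, and of 8 p53 genes 6 were below 0, with a median of -0.12 and 0 at that p. Of 77 tested genes for the mitochondrial ribosome, which is encoded apart from the cytosolic one, 70 were below 0, with a median of -0.18, and 5 had an unadjusted p under 0.05. No gene of these 8 lists was above 0 at that p (background 4.08%). Lower without overlap of the groups (background 9.04%) were 12 initiation factors, 5 elongation factors, 12 assembly factors and 14 mitochondrial ribosomal genes. So were 2 genes of RNA polymerase I, 3 of the mTORC1 list and 0 of the other TOP mRNAs and the p53 genes. Among ribosomal protein genes it was 5 of 84. Higher without overlap were 1 gene of the mTORC1 list and 1 mitochondrial ribosomal gene (background 7.71%).

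With the replicate block more of them were lower at an unadjusted p under 0.05 (background 9.92%), 11 of the initiation factors, 15 of the assembly factors, 20 of the mitochondrial ribosomal proteins and 5 of the mTORC1 list. The count was 2 among the other TOP mRNAs, 2 in RNA polymerase I and 1 among the p53 genes, and it was 4 among the elongation factors in both fits. In the same fit Eef1a1 was 1 of 3 genes of the lists that were higher at that p.

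With both libraries numbered 3 left out the medians of the lists lay nearer to 0, from -0.13 for the elongation factors to -0.057 for the p53 genes. In that fit (background 48.2% below 0) 30 of the 36 initiation factors, 7 of the 10 elongation factors, 8 of the 10 other TOP mRNAs and 36 of the 44 assembly factors were below 0. So were 13 of the 15 genes of RNA polymerase I, 12 of the 21 of mTORC1 and translation control, 6 of the 8 p53 genes and 52 of the 77 for the mitochondrial ribosome. At an adjusted p under 0.05 (background 2.05% lower and 1.95% higher), 2 initiation factors, 2 elongation factors, 1 other TOP mRNA and 1 gene of the mTORC1 list fell, 1 elongation factor rose, and 0 genes of the 4 other lists passed.

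The 2 genes for elongation factor 1 alpha are used by different cells, Eef1a2 by mature muscle fibres and Eef1a1 by most other cells. Eef1a1, a TOP mRNA, was at 129, 131 and 219.5 CPM in AAV-GFP and at 192, 168 and 231 CPM in AAV-RBM20. Each AAV-RBM20 library was above the AAV-GFP library of the same number, the groups overlapped, and the log2 fold change was 0.30 ± 0.23. In the fit without both libraries numbered 3 it was 0.47, with an edgeR adjusted p of 0.00693. Eef1a2 was at 1165, 1108 and 1118 CPM in AAV-GFP and at 1132, 1167 and 826 CPM in AAV-RBM20, with a log2 fold change of -0.12 ± 0.17 that turned to 0.023 without both libraries numbered 3.

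The gene with the largest log2 fold change of each list, at a mean log2 CPM of at least 1, is given here. Nhp2, an assembly factor, had -0.64 ± 0.20, Eif2s2, an initiation factor, -0.63 ± 0.22, and Eef1b2, an elongation factor, -0.55 ± 0.18. Eif2s2 was at 108, 104 and 176 CPM in AAV-GFP and at 72.7, 83.8 and 95.3 CPM in AAV-RBM20, without overlap. Myc of the mTORC1 list had -0.58 ± 0.47, Cd3eap of RNA polymerase I -0.51 ± 0.18 and Tpt1 of the other TOP mRNAs -0.50 ± 0.30. Mrpl36 of the mitochondrial ribosome had -0.42 ± 0.15 and Cdkn1a of the p53 list -0.38 ± 0.68. The groups overlapped for Myc, Tpt1 and Cdkn1a and not for the others, and none of these genes had an edgeR adjusted p under 0.618. Without both libraries numbered 3, Eif2s2 had -0.43, Eef1b2 -0.41 and Tpt1 -0.29, with edgeR adjusted p-values of 0.0114, 0.0132 and 0.0499, and the others stayed above 0.05.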

How the data were processed

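Samples were grouped by the treatment in the labels, AAV-GFP (n = 3) and AAV-RBM20 (n = 3), and replicate numbers were taken from the titles. The authors mapped reads of ribosomal RNA-depleted, stranded libraries to the mm10 genome by HISAT2 and obtained gene counts by HTSeq, and the deposited counts are raw whole numbers. The strand setting, annotation release and versions were not given in the sources used here. A table of counts divided by DESeq2 size factors was not used. Symbols, positions and exon lengths came from GENCODE M21. Members, lists and tests were chosen with earlier results of these data known.

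All genes were fitted with edgeR 4.0.16 in R 4.3.3 (filterByExpr, TMM, robust glmQLFit, glmQLFTest, no covariate), with Benjamini-Hochberg adjustment over the 17222 genes tested. CPM used TMM-scaled library sizes, and levels relative to the family median used log2 CPM with a prior count of 2. Paralog ratios were compared with two-sided exact permutation tests. A count of 0 was given the upper limit that 3 counts allow, which covers counting error only. The fitting was tested on simulated data that held no replicate effect, no outlying libraries and no correlation between genes. The fit with the replicate block was therefore not tested under such conditions. Across genes, deviations from the group means correlated at 0.42, 0.20 and 0.48 between same-numbered libraries, above the 0.1 set for pairing, and at -0.42 to 0.22 between the others. The pairing rests on these values and on the numbers in the titles, and AAV-GFP replicate 2 correlated slightly more with AAV-RBM20 replicate 1 than with replicate 2.

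Genes named were the 5 with the most negative and up to 5 with the most positive log2 fold changes at a mean log2 CPM of at least 1, the 5 with the highest level per kilobase of exon, the paralog pairs and genes of special roles, and the largest change of each list. Alternatives were other scalings, filters and tests (limma-voom with limma 3.58.1, DESeq2 1.42.0), the replicate block, removal of length and GC trends, pseudogene counts added, and libraries left out. Some genes are not reported here by name.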

Additional observations from a re-analysis of the deposited data

How the results depend on the processing

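No ribosomal protein gene passed an adjusted p of 0.05 in edgeR without a block, in 11 other settings with all libraries, or with any 1 library left out. The exceptions were the fit without both libraries numbered 3, with 26 (690 of all genes), and DESeq2 with the replicate block, with 30 (520 of all genes). Over all genes 0 passed in edgeR without a block, 8 without a low-count filter, 75 in DESeq2, 25 with the replicate block, 1 with length and GC trends removed and 45 with the block and the trends removed together.

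At an unadjusted p under 0.05, 7 ribosomal protein genes were lower without a block (background 3.82%) and 68 with the replicate block (background 9.92%). Without both libraries numbered 3 there were 60 (background 9.19%). In DESeq2 with the block there were 66, where 1324 of all 17222 genes were lower. The block with the trends removed also gave 66. For that fit and the settings that follow, the share over all genes at this p is not given here. The count was 15 without a low-count filter, 13 in DESeq2 and 4 with upper quartile factors. With 1 library left out they ranged from 0, without AAV-RBM20 replicate 1 or 2, to 23 without AAV-GFP replicate 2, and were 12, 2 and 18 without AAV-GFP replicate 1, AAV-GFP replicate 3 and AAV-RBM20 replicate 3. The cause of these changes was not tested.

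The median log2 fold change stayed below 0 in every setting run, from -0.55 to -0.098 with 1 library left out. The difference in the share of counts on the family ranged from -0.206 to 0.0451 percentage points, above 0 only without AAV-GFP replicate 3. Of 401 values of 31 single genes in the settings that leave out no single library, 366 kept their direction and their side of the threshold, 32 became called and 3 changed direction. Those 3 were Rpl3l (0.073) and Rpl7l1 (0.021) without both libraries numbered 3, and Rps10 (-0.37) with pseudogene counts added. With 1 library left out, Rpl3 ranged from -0.043 to 0.43, Rpl3l from -0.19 to 0.058, Rpl7 from -0.47 to 0.057, Rpl7l1 from -0.26 to 0.0076, Rps14 from -0.52 to 0.016, Rps27a from -0.60 to 0.19 and Rps4x from -0.49 to 0.14. Apart from Rpl3, whose sign changed without AAV-RBM20 replicate 3, each of these changed sign without AAV-GFP replicate 3.

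The 3 members left untested held 0 to 21 counts a library.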
